A study of Mus musculus with 17 samples.

Results

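Messenger RNA levels of 2 mouse immune cell populations were compared in libraries titled as controls, called untreated below. The comparison set 3 libraries titled as BMDC controls, from bone marrow-derived dendritic cells, against 3 libraries titled as B cell controls, from spleen. Libraries were placed in a group by title and by no measured value, and they are 6 of the 17 libraries of the series. The remaining 11 libraries were B cells or BMDC incubated with MSA2, a small-molecule agonist of the innate sensor STING, or with MSA2 plus IPI-549, an inhibitor of the lipid kinase PI3Kγ. The untreated B cell group and the untreated BMDC group each held 3 libraries. KPC mice, a model of pancreatic cancer, are the source named in the series' design text, while the genotype label reads WT for every library. No drug, stimulus or incubation time is named for the untreated cells. The labels give no age or sex of the mice, no cytokine used to grow the BMDC and no sort or other means by which B cells were isolated. They also do not say whether replicates came from separate animals, so p-values measure the spread between these samples, which may be technical. Each cell type has a table and a tissue of its own, so cell type cannot be told apart from tissue, culture or anything that differed between the tables.

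B cells carry an antigen receptor, a membrane immunoglobulin bound to the signalling chains CD79A and CD79B. Dendritic cells and macrophages carry Fc receptors, C-type lectins and Toll-like receptors, several of which signal through the adaptors DAP12 (Tyrobp) and FcRγ (Fcer1g). Both kinds of cell present antigen on MHC class II. STING is a membrane protein of the endoplasmic reticulum that binds cyclic dinucleotides made by the DNA sensor cGAS and calls the kinase TBK1 to the transcription factor IRF3, which switches on type I interferon. PI3Kγ and PI3Kδ are lipid kinases of white blood cells. The first, encoded by Pik3cg, works with the subunits p101 (Pik3r5) or p84 (Pik3r6) downstream of G protein-coupled receptors, and the second, encoded by Pik3cd, works downstream of tyrosine kinases such as those of the B cell receptor.

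Total counts per library were 45110247 to 51429550 in B cells and 34757983 to 43463865 in BMDC. Levels are given as CPM, the usual depth-scaled count, on the TMM-scaled library total. Values given as a series of 3 are replicates 1, 2 and 3, and values with ± are means with their SD (n = 3). Differences are log2 fold changes, BMDC minus B cells, with a standard error (SE). The SE was derived from the test for any difference, as the log2 fold change over the square root of the F statistic. For genes with few counts in 1 group, such as Cd79a, it can lie below the counting error. In bulk RNA, fewer cells of a type and less RNA per cell cannot be told apart. Libraries of a group correlated at 0.991 or more over log2 CPM, and B cell with BMDC libraries at 0.678 to 0.692. Among 15523 genes tested, 13340 (85.9%) differed at a Benjamini-Hochberg adjusted p under 0.05 in edgeR's quasi-likelihood test, 6613 higher in BMDC (42.6%) and 6727 higher in B cells (43.3%). Because most genes differed, a second test asked whether the difference was over 4-fold. It called 4019 genes (25.9%), 2348 higher in BMDC (15.1%) and 1671 higher in B cells (10.8%), and these shares are the background for every list below. The median log2 difference of all genes tested was -0.025. "Over 4-fold" below always means a call by that second test.

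Some libraries stood apart. Untreated BMDC replicate 2 held 499 counts of the interferon gene Ifnb1, against 0 and 2 in the other BMDC controls and 39790 to 70299 after MSA2, and Tnf, Cxcl10, Ifit1 and Isg15 are given below with and without it. Untreated BMDC replicate 3 held 25777 CPM of CT010467.1, against 2003 and 2786 CPM in the other BMDC controls and 5085 to 6848 CPM in B cells. Leaving out BMDC replicate 2 gave 3974 genes over 4-fold, and leaving out replicate 3 gave 4048. All 3 B cell libraries held both Xist (512, 394 and 303 CPM) and the Y-linked gene Ddx3y (49.2, 42.2 and 35.9 CPM), whereas the BMDC libraries held Xist (269, 341 and 242 CPM) and no count of Ddx3y, Kdm5d, Uty or Eif2s3y. The groups thus differed in Y-linked RNA, and the sex of the source animals cannot be told apart from cell type. Ribosomal protein genes took 10.5 to 10.9% of counts in B cells and 3.65 to 4.13% in BMDC. Mitochondrially encoded genes took 2.23 to 3.73% and 1.94 to 2.36%.

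**Figure D1:**
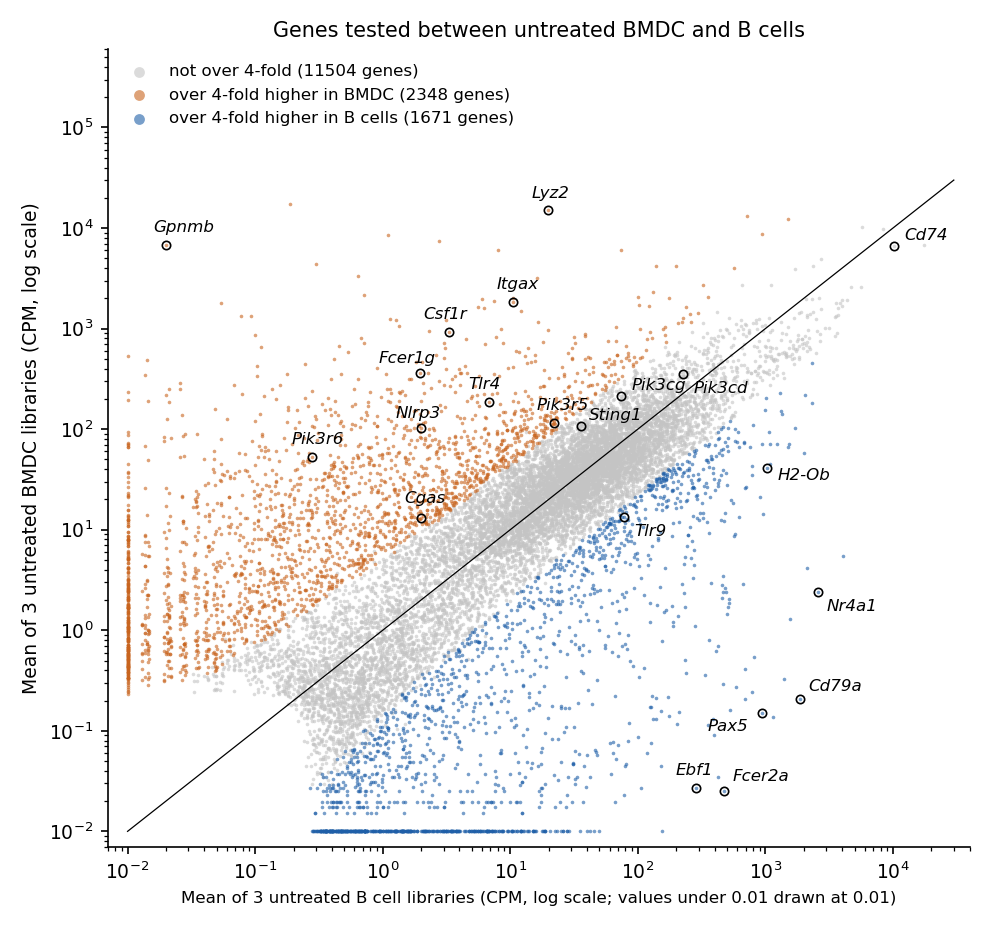
Mean level of each gene tested in 3 untreated B cell libraries (horizontal axis, CPM) and 3 untreated BMDC libraries (vertical axis, CPM), both on log scales, with genes over 4-fold in orange (2348, higher in BMDC) and blue (1671, higher in B cells). Named genes are circled, and the line marks equal levels; Cd79a and Pax5 lie far below it and Csf1r and Itgax far above it, while Cd74 lies close to it.

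Markers matched the B cell label and matched the BMDC label in part. Cd79a, the receptor's signalling chain, was at 1824, 1782 and 2016 CPM in the 3 B cell libraries and at 0.232, 0.184 and 0.207 CPM in BMDC. Cd79b was at 711, 657 and 724 CPM and 0.406, 0.438 and 0.385 CPM. Every B cell library was thus far above every BMDC library, and the log2 differences were -13.13 (SE 0.14) and -10.71 (SE 0.10). The list of B cell receptor complex and coreceptor genes had 16 members in the tables, and 13 of them (81.3%) were over 4-fold higher in B cells. Its exceptions were the tetraspanin Cd81, at 90.1 ± 1.96 and 87.6 ± 2.9 CPM and not called, Cd5, at 2.79 ± 0.672 and 1.66 ± 0.335 CPM, whose call of any difference was lost without BMDC replicate 2, and the phosphatase gene Ptpn6, 544 ± 38.3 against 218 ± 10.4 CPM. All 12 immunoglobulin constant genes were over 4-fold higher in B cells. For Ighe that call was lost in DESeq2 (adjusted p = 0.166) and in a fit of all 17 libraries (edgeR adjusted p = 0.0523). It was also lost without BMDC replicate 1, BMDC replicate 3 or B cell replicate 2. Ighm was at 4056 ± 284 against 5.45 ± 0.745 CPM and Igkc at 1549.6 ± 110 against 1.3 ± 0.122 CPM.

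In the BMDC libraries, 17 of 18 macrophage and monocyte markers (94.4%) were over 4-fold higher than in B cells. Csf1r, the receptor for macrophage colony-stimulating factor, was at 966, 884 and 931 CPM against 5.64, 2.21 and 2.01 CPM, a log2 difference of 8.12 (SE 0.33). Lyz2, which encodes lysozyme, was at 15117 ± 1409 against 19.8 ± 6.16 CPM. Cd163, a scavenger receptor of tissue macrophages, was the member not over 4-fold, at 1.21 ± 0.147 against 0.67 ± 0.252 CPM, and its call of any difference was lost without BMDC replicate 2, B cell replicate 2 or B cell replicate 3. The dendritic cell list was split. Of 18 markers, 10 (55.6%) were over 4-fold higher in BMDC and 4 (22.2%) in B cells. Itgax, which encodes CD11c, was at 1899, 1698 and 1937 CPM in BMDC and 10.8, 8.21 and 12.7 CPM in B cells. The chemokine gene Ccl22 and the lectin genes Mgl2 and Clec10a were also higher in BMDC, at 509, 1325 and 79.6 CPM against 3.04, 0.0771 and 0.0542 CPM. Flt3 and Xcr1, genes of conventional dendritic cells, were at 0.28 ± 0.0349 and 0.177 ± 0.0793 CPM in BMDC and higher in B cells, at 18.3 ± 2.1 and 4.21 ± 0.778 CPM. The migration receptor gene Ccr7 and the maturation marker Cd83 were higher in B cells too, at 1227 ± 124 against 71.7 ± 10.9 CPM and 1534 ± 47.1 against 70.9 ± 10.9 CPM. The dendritic cell list summed to 6054 to 6529 CPM in BMDC and 2711 to 2894 CPM in B cells, and the macrophage list to 18499 to 20951 CPM and 47.2 to 71.2 CPM, most of the former from Lyz2.

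Markers of other cells were also measured. Of 10 neutrophil markers tested, 8 (80%) were over 4-fold higher in BMDC, where the list summed to 737 to 999 CPM, most of it from Mmp8 at 657 ± 41.3 CPM, and it summed to 2.32 to 34.3 CPM in B cells. T cell markers summed to 10.6 to 38 CPM in B cells and 25.5 to 31 CPM in BMDC, where Cd3e, Trbc1, Trbc2, Cd8b1 and Bcl11b had no count. Natural killer cell markers summed to 13.9 to 19.3 CPM in B cells, most of it from the perforin gene Prf1, and to 6.85 to 8.96 CPM in BMDC. Erythroid markers summed to 21.3 to 43.9 CPM in B cells and 1.24 to 2.08 CPM in BMDC. B cell replicate 1 had the highest sum for each of these 4 lists among the B cell libraries. Mast cell and basophil markers summed to 5.43 to 7.68 CPM in B cells and 46.4 to 46.9 CPM in BMDC, plasmacytoid dendritic cell markers to 772 to 786 CPM (mostly Ly6d, at 585 ± 4.72 CPM) and 118 to 132 CPM, plasma cell markers to 1330 to 1607 CPM (mostly Irf4) and 609 to 692 CPM, and stromal and endothelial markers to 229 to 252 CPM (mostly Pecam1, at 229.7 ± 12 CPM) and 18.1 to 21.5 CPM. The part of other cells in the differences below was not tested.

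**Figure D2:**
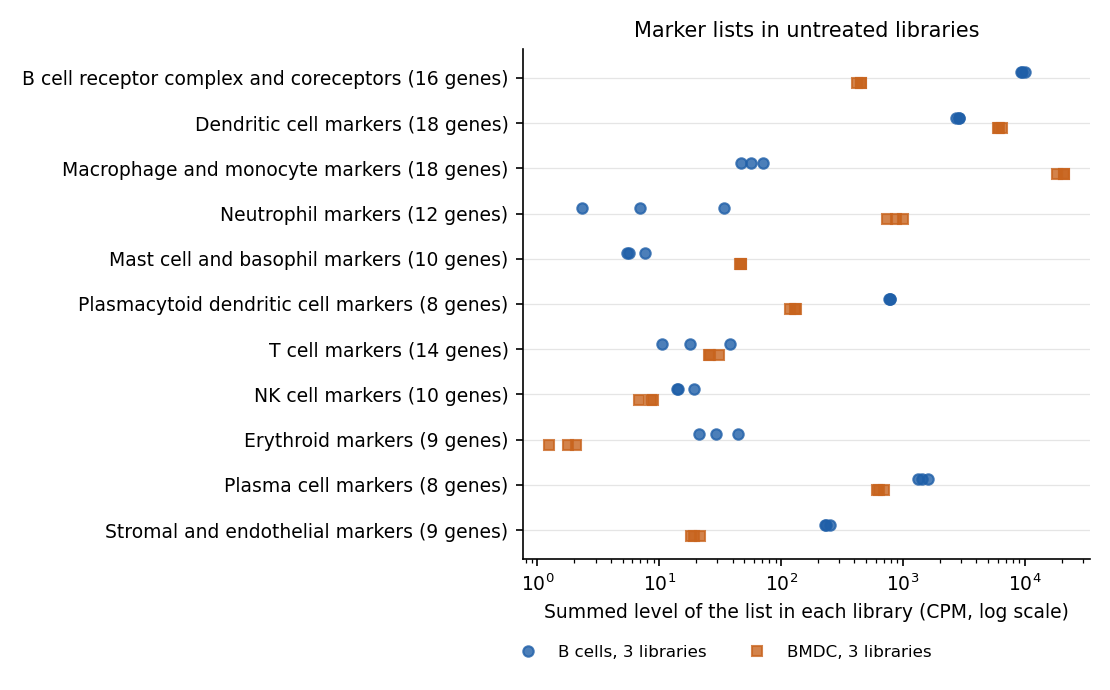
Summed CPM (horizontal axis, log scale) of 11 marker lists in each untreated library, with circles for B cells and squares for BMDC. The macrophage and monocyte list sits at 18499 to 20951 CPM in BMDC and 47.2 to 71.2 CPM in B cells, and the B cell receptor list shows the opposite order.

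Among genes over 4-fold with a mean of at least 50 CPM in 1 group, the 10 largest differences in each direction held many lineage genes. Those higher in B cells included Fcer2a, Cacna1i, Cr2, Ebf1, Cd79a, Pax5, Blk, Ms4a1 and Fcmr. Fcer2a, which encodes the low-affinity IgE receptor CD23, had 68156 counts in B cells and 3 in BMDC (17575-fold, 95% counting interval 6014 to 85225). Cr2, the complement receptor CD21, was at 423 ± 25.4 against 0.0351 ± 0.0311 CPM, and Ms4a1, which encodes CD20, at 1412 ± 68.9 against 0.327 ± 0.107 CPM. Higher in BMDC were Gpnmb, Mmp12, Klk1b11, Tarm1, Atp6v0d2, Cxcl3, Ccl17, Ptx3, Asgr2 and Csta2. Gpnmb, a lysosomal glycoprotein of macrophages, had 754892 counts in BMDC and 3 in B cells (325270-fold, 95% counting interval 111300 to 1577300). Mmp12, the macrophage elastase, was at 17803, 17892 and 16929 CPM in BMDC and 0.0389, 0.17 and 0.35 CPM in B cells. Tarm1 and Klk1b11 had no count in B cells, so BMDC were at least 9411-fold and 10994-fold higher, taking 3 counts over the B cell group as the floor.

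Lineage transcription factors were tested as 2 lists. All 17 B lineage factors were higher in B cells, 13 (76.5%) of them over 4-fold, with a list median of -6.68. Pax5, which keeps B cells committed to their lineage, was at 931, 934 and 962 CPM against 0.145, 0.161 and 0.148 CPM. Ebf1, an early B cell factor, had 41454 counts against 3 (10690-fold, 95% counting interval 3658 to 51837). Pou2af1, the octamer coactivator of B cells, was at 526 ± 36.3 against 0.162 ± 0.0748 CPM and its partner Pou2f2 at 154 ± 7.26 against 0.783 ± 0.173 CPM. Among 24 myeloid factors, 17 were higher in BMDC and 6 in B cells, and 10 (41.7%) and 3 (12.5%) were over 4-fold. Spi1, which encodes PU.1, was present in both, at 299.7, 296 and 318 CPM in BMDC and 74.8, 77.8 and 82.7 CPM in B cells, with no overlap (log2 difference 1.96, SE 0.06; edgeR adjusted p = 4.56e-10). Cebpb, a factor of inflammatory myeloid genes, was at 121, 138 and 129.6 CPM against 44.3, 62.4 and 46.8 CPM (1.34, SE 0.12). Cebpa, a factor of early myeloid cells, was over 4-fold higher in BMDC, at 113 ± 12.4 against 0.57 ± 0.188 CPM. Klf4, Maf and Nr4a1 were the members over 4-fold higher in B cells, and Klf4 was at 345 ± 75.4 CPM in B cells and 29.5 ± 5.75 CPM in BMDC. For Maf that call was lost in DESeq2, in limma-voom and without BMDC replicate 1, BMDC replicate 2 or B cell replicate 1, with adjusted p of 0.0526 to 0.214.

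Promoter sequence was set beside these factors for a few genes. Short motifs linked to them, or to lysosomal genes, by textbook knowledge were searched on both strands in the 250 bases before the start site of RefSeq promoters (GRCm38.p6). They were the palindromic EBF motif for EBF1, ATGCAAAT for octamer factors such as Oct-2, GAGGAAGT for PU.1, TTGCNCAA for C/EBP factors, and for the TFEB, TFE3 and MITF family TCACGTGA, the CLEAR element of lysosomal genes, and TCATGTGA. No match in capitals overlapped a match of another motif; Blnk also held TCATGTGA on the other strand, left in lower case. Promoters were at hand for 942 of 1671 gene symbols over 4-fold higher in B cells, 1766 of 2347 higher in BMDC and 10748 of 15512 tested. The shares below cover only those. The octamer was in 2.74% of 1239 promoters of genes over 4-fold higher in B cells, 1.25% of 2319 promoters of genes over 4-fold higher in BMDC, 1.39% of 13683 promoters of genes tested and 1.6% of all 32851 promoters. It was in 0 of 24 promoters of the B lineage factors and 0 of 16 of the B cell receptor list. PU.1 letters were in 4 of 16 promoters of the B cell receptor list and 3 of 13 of the macrophage list and in 0 of 24 of the B lineage factors, against 2.74% of promoters of genes tested and 2.44% of all promoters. In the full sets they were in 3.32% of promoters of genes over 4-fold higher in BMDC and 2.91% of those higher in B cells, close to that background. The 13 macrophage promoters belonged to 12 genes. Their PU.1 letters were in C1qc and in overlapping promoters of Ly6c2, so shared sequence was counted more than once. CLEAR letters were in 4 of 32 promoters of the lysosome list and in 0.474% of promoters of genes over 4-fold higher in BMDC, against 1.43% of promoters of genes tested and 0.785% of all. The lysosome genes with them were Ctsa, Ctsd, Gla and Ifi30, of which Gla was higher in B cells and the others in BMDC. EBF letters were in 1.53% of promoters of genes over 4-fold higher in B cells, 1.12% of those higher in BMDC and 0.935% of those tested. In the B cell receptor list they were in 1 of 16. For TTGCNCAA the same 3 shares were 1.53%, 2.8% and 2.28%, and for TCATGTGA 0.323%, 0.949% and 0.614%. A match is a description and not a binding site, and none of these shares was tested. Shown are 250 bases, 5′ to 3′ and ending at the start site, of genes described in the sections below, with the matched letters in capitals. They were chosen because they hold a match, after the matches were seen.
Tlr9 (chr9:106222348-106222597, plus strand): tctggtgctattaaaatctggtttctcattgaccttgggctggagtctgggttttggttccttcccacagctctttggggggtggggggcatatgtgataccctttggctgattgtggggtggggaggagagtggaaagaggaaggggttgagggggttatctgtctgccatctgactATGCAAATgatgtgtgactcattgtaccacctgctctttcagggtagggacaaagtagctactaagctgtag
Blnk (chr19:40994222-40994471, minus strand): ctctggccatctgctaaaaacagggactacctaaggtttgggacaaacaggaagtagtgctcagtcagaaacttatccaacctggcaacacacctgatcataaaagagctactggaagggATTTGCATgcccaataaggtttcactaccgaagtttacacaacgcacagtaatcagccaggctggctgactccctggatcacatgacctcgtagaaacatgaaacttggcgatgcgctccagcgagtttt
Cd22 (chr7:30879029-30879278, minus strand): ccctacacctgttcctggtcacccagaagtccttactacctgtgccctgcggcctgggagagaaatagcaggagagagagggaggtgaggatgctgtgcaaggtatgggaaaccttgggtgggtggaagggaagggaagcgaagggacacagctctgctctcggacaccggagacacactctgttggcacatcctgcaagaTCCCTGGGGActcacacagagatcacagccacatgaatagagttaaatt
Pik3cg (chr12:32208471-32208720, minus strand): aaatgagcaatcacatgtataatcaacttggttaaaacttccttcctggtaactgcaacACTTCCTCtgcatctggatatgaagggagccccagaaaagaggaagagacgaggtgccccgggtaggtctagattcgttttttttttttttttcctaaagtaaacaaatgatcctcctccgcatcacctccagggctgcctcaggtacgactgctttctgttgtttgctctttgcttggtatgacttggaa
Inpp5d (chr1:87620062-87620311, plus strand): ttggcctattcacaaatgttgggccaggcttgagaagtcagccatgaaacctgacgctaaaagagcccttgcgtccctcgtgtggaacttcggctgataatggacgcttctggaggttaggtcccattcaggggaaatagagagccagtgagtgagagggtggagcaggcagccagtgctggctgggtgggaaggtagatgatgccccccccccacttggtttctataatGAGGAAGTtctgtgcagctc
Ctsd (chr7:142387828-142388077, minus strand): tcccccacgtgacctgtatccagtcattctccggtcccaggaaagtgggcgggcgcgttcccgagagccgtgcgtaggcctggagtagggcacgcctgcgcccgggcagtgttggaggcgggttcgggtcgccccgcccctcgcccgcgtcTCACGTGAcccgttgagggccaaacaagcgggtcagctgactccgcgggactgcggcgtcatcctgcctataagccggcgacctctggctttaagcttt
The octamer began -72 bases from the start site in Tlr9 and -130 in Blnk, the EBF1 letters -49 in Cd22, the PU.1 letters -191 in Pik3cg and -20 in Inpp5d, and the CLEAR letters -99 in Ctsd. The start site used for Pik3cg lies inside the gene span given below, whose 5′ end is at 32208659. Most of its printed window is thus within the annotated gene, and its match spans that 5′ end. Tlr9, Blnk, Cd22 and Inpp5d were higher in B cells, and Pik3cg and Ctsd higher in BMDC.

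Antigen receptor signalling and its myeloid counterpart use immunoreceptor tyrosine-based activation motifs (ITAMs), which recruit the kinase SYK. The ITAM carriers were exchanged between the cell types. Tyrobp was at 456, 499 and 438 CPM in BMDC and 16.2, 12.7 and 14.4 CPM in B cells, and Fcer1g at 366, 363 and 357 CPM and 2.94, 1.19 and 1.77 CPM, opposite to Cd79a and Cd79b. The log2 differences were 5.01 (SE 0.10) and 7.51 (SE 0.22). Blnk, the scaffold that joins SYK to phospholipase Cγ2 in B cells, was at 242 ± 10.4 against 19.8 ± 2.19 CPM, and Lcp2, the SLP-76 scaffold, was at 77.1 ± 15.1 CPM in BMDC against 2.76 ± 0.645 CPM. Card9, which carries the signal of C-type lectins to NF-κB, was higher in BMDC (47.7 ± 1.34 against 0.254 ± 0.11 CPM). Src-family kinases differed in both directions, with Blk at 393 ± 17 CPM in B cells and 0.0913 ± 0.0236 CPM in BMDC, and Fgr at 113 ± 7.37 CPM in BMDC and 17.9 ± 0.978 CPM in B cells. Fyn overlapped between the groups and was not called, at 54.5 ± 3.3 and 51.9 ± 6.98 CPM. Over the whole list of 35 genes, 10 were higher in BMDC, 22 were higher in B cells and 3 were not called, and 6 (17.1%) and 7 (20%) were over 4-fold. The list median was -0.63.

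STING pathway genes differed in both directions. Sting1 (ENSMUSG00000024349, chromosome 18, 35733679 to 35740554 in GRCm38) was at 108, 101 and 114 CPM in BMDC and 34.4, 34.7 and 37.6 CPM in B cells, with every BMDC library above every B cell library (log2 difference 1.60, SE 0.07; edgeR adjusted p = 3.92e-09). Cgas, which makes the cyclic dinucleotide that STING binds, was at 12.3, 13.5 and 13.8 CPM against 2.43, 1.55 and 2.03 CPM (2.71, SE 0.15). It was over 4-fold higher in BMDC (edgeR adjusted p = 4.61e-04 for that test), and Sting1 was not. The kinase genes were also higher in BMDC. Tbk1 was at 81.8, 79.7 and 81.9 CPM against 61.6, 65.3 and 52.5 CPM (0.44, SE 0.08), and Ikbke, its relative, at 36.1, 39.9 and 32.8 CPM against 11, 11.4 and 10.7 CPM (1.72, SE 0.09). The interferon regulatory factors went the other way. Irf3 was at 45.1, 48.3 and 41.4 CPM in B cells and 26.5, 28.1 and 24 CPM in BMDC (-0.78, SE 0.08; edgeR adjusted p = 6.59e-06). Irf7, which amplifies the interferon response, was over 4-fold higher in B cells, at 61.4, 59.3 and 48.8 CPM against 9.61, 7.31 and 7.72 CPM (-2.79, SE 0.12). Sting1, Cgas, Tbk1 and Ikbke were thus higher in BMDC and Irf3 and Irf7 higher in B cells. Without BMDC replicate 2 the difference of Irf7 was -2.69, still over 4-fold.

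Across the list of 33 tested STING and DNA sensing genes, 14 were higher in BMDC and 18 in B cells, with 3 (9.09%) and 6 (18.2%) over 4-fold and a median of -0.20. Enpp1, which cleaves the cyclic dinucleotide cGAMP, was at 37.4 ± 2.66 CPM in B cells and 5.85 ± 0.74 CPM in BMDC, over 4-fold lower in BMDC. Trex1, a nuclease that clears cytosolic DNA, was called with an overlap of the groups, at 27.8, 22.3 and 25.3 CPM and 22.6, 18.5 and 15.1 CPM (-0.42, SE 0.14; edgeR adjusted p = 0.0144). The Trex1 call was lost without BMDC replicate 3 (-0.26, adjusted p = 0.0596) and in a fit of all 17 libraries (adjusted p = 0.0753). Nlrc3 and Nlrx1, both known as brakes on STING, differed in opposite directions. Nlrc3 was higher in B cells (14.3 ± 1.37 against 2.4 ± 0.156 CPM) and Nlrx1 in BMDC (34.3 ± 0.71 against 4.42 ± 0.824 CPM). The PYHIN family of DNA-binding proteins was divided as well, with Ifi204 at 34.1 ± 4.08 CPM in BMDC and 0.397 ± 0.121 CPM in B cells, and Ifi203 and Mndal higher in B cells, at 216 ± 11.5 and 105 ± 2.02 CPM against 19.1 ± 2.45 and 21.4 ± 1.52 CPM. These genes lie in a family of near copies, and how reads were split between them is uncertain. Traf3, an adaptor on the way to interferon, was over 4-fold higher in B cells, at 147 ± 7.21 against 32.4 ± 0.928 CPM, a call that was lost in DESeq2 (adjusted p = 0.0542).

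**Figure D3:**
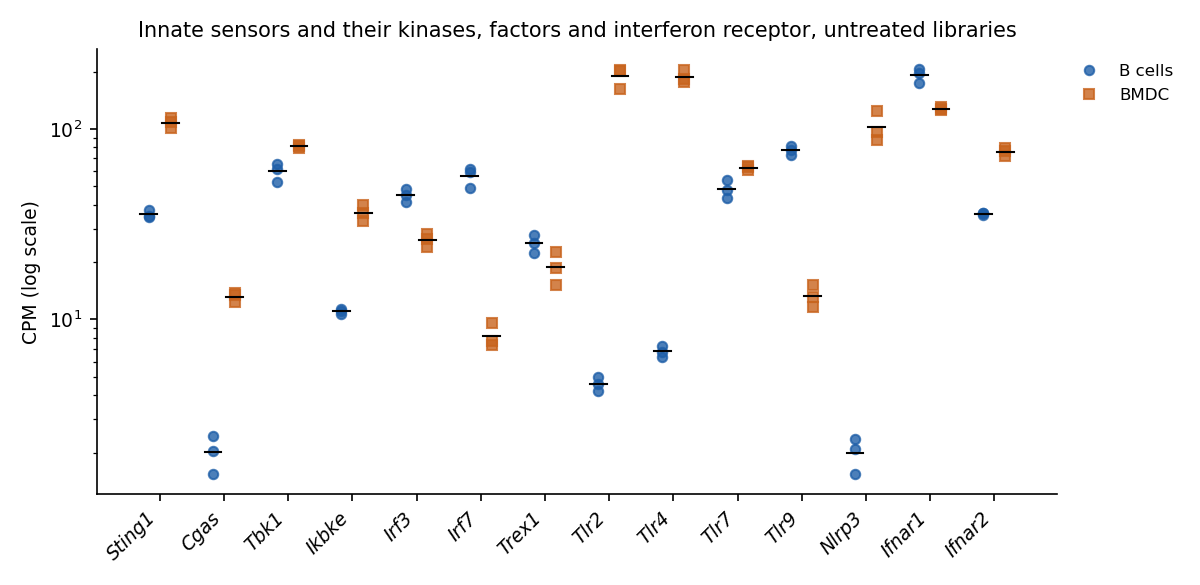
Level of 14 key genes in each untreated library (vertical axis, CPM, log scale), with circles for the 3 B cell libraries, squares for the 3 BMDC libraries and lines at the group means. Sting1, Cgas, Tlr2, Tlr4 and Nlrp3 lie higher in BMDC, Irf3, Irf7 and Tlr9 higher in B cells, and the groups overlap for Trex1.

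RNA sensing showed 6 genes higher in each direction among 12 tested, 2 (16.7%) of them over 4-fold higher in BMDC and none over 4-fold higher in B cells. The MDA5 gene Ifih1 was at 32.9 ± 2.24 CPM in BMDC and 4.79 ± 0.191 CPM in B cells. The RIG-I gene, listed as Ddx58, was the reverse, at 75.5 ± 5.42 CPM in B cells and 22.9 ± 1.82 CPM in BMDC.

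Toll-like receptors differed in both directions. Tlr2, a sensor of bacterial lipoproteins, was at 162, 203 and 201 CPM in BMDC and 5.01, 4.2 and 4.59 CPM in B cells (5.36, SE 0.11). Tlr4, the sensor of lipopolysaccharide, was at 176, 202 and 183 CPM and 7.29, 6.32 and 6.76 CPM (4.78, SE 0.08), and its coreceptor Cd14 at 229 ± 22 against 1.37 ± 0.327 CPM. Tlr13 and Tlr8 were also over 4-fold higher in BMDC, at 186 ± 16.7 and 30.4 ± 1.57 CPM against 0.768 ± 0.114 and 0.0937 ± 0.0899 CPM. Higher in B cells was Tlr9, the endosomal sensor of CpG DNA whose promoter is printed above, at 77.5, 72.9 and 81.3 CPM against 15.1, 11.6 and 13.1 CPM (-2.54, SE 0.10; edgeR adjusted p = 8.60e-05 for over 4-fold). Tlr1 and Ly86, the partner of the TLR4-like protein CD180, were higher in B cells too, at 67.6 ± 2.61 against 6.55 ± 0.662 CPM and 241 ± 10.3 against 48.4 ± 5.01 CPM. Tlr7, a sensor of single-stranded RNA, was close to equal, at 61.1, 63.8 and 63 CPM in BMDC and 47.8, 43.5 and 54.1 CPM in B cells, with no overlap (0.37, SE 0.08; edgeR adjusted p = 0.00124). Of 28 genes in the list, 7 (25%) were over 4-fold higher in BMDC and 3 (10.7%) in B cells. Irak2 was not called with all libraries, at 93.6 ± 8.56 and 83.2 ± 7.25 CPM, but was called in 5 alternatives, all with a higher level in B cells.

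Inflammasome genes were mostly higher in BMDC, 18 of 23, with 9 (39.1%) over 4-fold. Nlrp3, which forms the best-known inflammasome, was at 87.6, 96.8 and 124 CPM in BMDC and 2.08, 1.55 and 2.36 CPM in B cells (5.68, SE 0.17). Its adaptor Pycard was at 128 ± 7.76 against 22.9 ± 1.12 CPM. Il1rn, the interleukin-1 receptor antagonist, was at 501 ± 22.6 against 0.415 ± 0.221 CPM. Il1b itself was at 32.9, 48.6 and 36.4 CPM in BMDC and 21.1, 13.1 and 17.6 CPM in B cells, a difference of 1.19 (SE 0.18) that was not over 4-fold. Nod1, a sensor of bacterial cell wall fragments, was over 4-fold higher in B cells, at 28.7 ± 1.62 against 4.9 ± 0.231 CPM.

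C-type lectins, which bind sugars of microbes and dying cells, were over 4-fold higher in BMDC for 14 (73.7%) of 19 genes and in B cells for none, with a median of 7.22. Clec4n, which encodes Dectin-2, reached 3345 ± 162 CPM against 0.641 ± 0.459 CPM, and Clec4d and Clec5a were at 239.7 ± 16.2 and 122 ± 11.2 CPM against 0.281 ± 0.251 and 0.0998 ± 0.101 CPM. Ly75, which encodes DEC-205, was not called, at 28.5 ± 1.2 and 30.9 ± 0.259 CPM. The activating IgG receptors Fcgr1 and Fcgr3 were at 198 ± 14.7 and 802 ± 31.5 CPM in BMDC and 0.146 ± 0.0462 and 0.676 ± 0.242 CPM in B cells. The inhibitory receptor Fcgr2b was present in both, at 505 ± 54.4 CPM in BMDC and 80.2 ± 6.33 CPM in B cells. Fcmr, the IgM receptor, and Fcrl5 were higher in B cells, at 687 ± 48.5 and 32.4 ± 7.16 CPM against 0.209 ± 0.107 and 0.0623 ± 0.0304 CPM. In that list of 19, 11 (57.9%) genes were over 4-fold higher in BMDC and 6 (31.6%) in B cells.

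PI3K subunits were compared first between the cell types and then, per length, within each. Pik3cg (ENSMUSG00000020573, chromosome 12, 32173473 to 32208659), the target of IPI-549, was at 236, 189 and 216 CPM in BMDC and 73.9, 71.9 and 77.1 CPM in B cells, with no overlap (1.53, SE 0.08; edgeR adjusted p = 2.63e-08). It was thus higher in BMDC, by less than 4-fold. Its partners were far more unequal. Pik3r5 (ENSMUSG00000020901, chromosome 11, 68432121 to 68497849) was at 122, 106 and 119 CPM in BMDC and 23.2, 21.4 and 20.9 CPM in B cells (2.40, SE 0.07). Pik3r6 (ENSMUSG00000046207, chromosome 11, 68503019 to 68552698) was at 57.4, 49.8 and 53 CPM in BMDC and 0.194, 0.34 and 0.306 CPM in B cells (7.57, SE 0.14). Both were over 4-fold higher in BMDC, with edgeR adjusted p of 1.10e-04 and 7.01e-11 for that test.

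Among the other catalytic subunits, Pik3cd was at 369, 335 and 348 CPM in BMDC and 223, 231 and 229.8 CPM in B cells (0.62, SE 0.06). Pik3cb, found in most tissues, was at 69.5, 73.6 and 101 CPM and 4.47, 4.69 and 6.06 CPM (4.0, SE 0.17) and over 4-fold higher in BMDC. Pik3ca was the catalytic subunit gene that was higher in B cells, at 109, 105 and 104 CPM against 53.7, 51.8 and 49.6 CPM (-1.03, SE 0.06). The regulatory subunit Pik3r1, which holds the class IA enzymes, overlapped between the groups, at 106, 107 and 109 CPM in B cells and 94.5, 98 and 109.5 CPM in BMDC (-0.09, SE 0.06; edgeR adjusted p = 0.21). Pik3r4, which belongs to the class III complex and stood in the list of 10, was over 4-fold higher in B cells, at 155 ± 19 against 27.5 ± 0.989 CPM. In all 3 (30%) genes of the list were over 4-fold higher in BMDC and 1 (10%) in B cells.

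Levels of different genes can be compared only per length. Counts per kilobase of exon, scaled to the same total in every library, put Pik3cd first among the catalytic subunits of both cell types, at 103 ± 5.09 in B cells and 158 ± 8.55 in BMDC (SD, n = 3). In BMDC, Pik3cg came next at 79.5, 63.2 and 71.6, then Pik3cb at 27.4, 28.8 and 39.2 and Pik3ca at 16.8, 16 and 15.3, with no overlap between neighbours in that order. In B cells, Pik3ca at 32.6, 33.1 and 33 lay above Pik3cg at 24, 24.5 and 26.4, and Pik3cb was lowest at 1.7, 1.87 and 2.43. With the longest transcript as the length, that order of Pik3ca and Pik3cg in B cells reversed, at 25.8 and 27.5 on the same scale. The PI3Kγ partners were at 11.1 ± 0.264 (Pik3r5) and 0.22 ± 0.065 (Pik3r6) in B cells and 58.7 ± 4.38 and 41.5 ± 3.18 in BMDC. Per length, Pik3r6 was thus far below Pik3r5 in B cells, while in BMDC both partners were within the same order of magnitude.

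**Figure D4:**
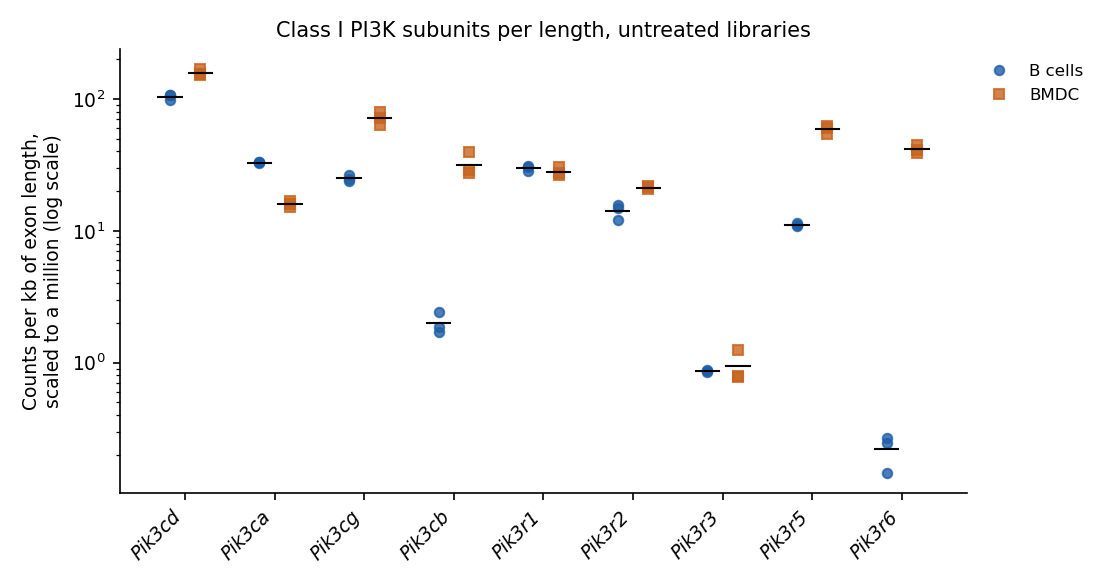
Counts per kilobase of exon length scaled to the same total in every library (vertical axis, log scale) of 9 class I PI3K subunit genes in each untreated library, with circles for B cells, squares for BMDC and lines at the means. Pik3cd is the highest catalytic subunit in both cell types, and Pik3r6 is near 0.22 ± 0.065 in B cells and 41.5 ± 3.18 in BMDC.

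Genes around PI3K leaned toward B cells. Of 34 adaptors, phosphatases and effectors, 21 were higher in B cells and 12 in BMDC, and 7 (20.6%) and 3 (8.82%) were over 4-fold, with a median of -0.55. Pik3ap1, the BCAP adaptor that couples the B cell receptor and Toll-like receptors to PI3K, was at 778, 738 and 745 CPM in B cells and 202, 201 and 220.3 CPM in BMDC (-1.86, SE 0.06). Gab2, an adaptor of growth factor receptors, was the reverse, at 77.6 ± 1.03 CPM in BMDC and 1.68 ± 0.279 CPM in B cells. Lipid phosphatase genes differed in both directions. Inppl1, which encodes SHIP2, was higher in BMDC, at 41.8 ± 3.04 against 17.2 ± 0.593 CPM. Inpp5d, which encodes SHIP1 and whose promoter is printed above, was higher in B cells, at 257, 251 and 257 CPM against 172, 156 and 175 CPM (-0.60, SE 0.06). It was not over 4-fold, but Inpp4b was, at 47.4 ± 2.29 against 2.44 ± 0.25 CPM. So was Pik3ip1, an inhibitor of PI3K, at 50.1 ± 6.2 against 2.52 ± 0.943 CPM. Ras activators differed in both directions, with Rasgrp3 and Rasgrp2 at 190.1 ± 13.3 and 164 ± 7.26 CPM in B cells and 1.2 ± 0.327 and 4.17 ± 0.239 CPM in BMDC, and Rasgrp4 at 71.2 ± 7.37 CPM in BMDC and 2.11 ± 0.449 CPM in B cells. Foxo1, a transcription factor that AKT keeps out of the nucleus, was at 472 ± 16.8 CPM in B cells and 12.1 ± 1.35 CPM in BMDC.

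Chemoattractant receptors, which feed PI3Kγ through G proteins, split the list of 35 nearly evenly, 15 (42.9%) over 4-fold higher in BMDC and 13 (37.1%) in B cells. Higher in B cells were Cxcr5, which guides B cells to follicles, Ccr6 and S1pr1, a receptor used to leave lymphoid organs. Cxcr5 was at 808 ± 45.8 against 0.543 ± 0.119 CPM, Ccr6 at 78.5 ± 2.72 against 2.15 ± 0.311 CPM and S1pr1 at 511 ± 45.1 against 1.69 ± 0.191 CPM. Higher in BMDC were C3ar1, a receptor of a complement fragment, the formyl peptide receptor Fpr2 and the chemokine receptor Ccr2. C3ar1 was at 142 ± 11 against 0.11 ± 0.0768 CPM, Fpr2 at 38.6 ± 6.24 against 0.0862 ± 0.0942 CPM and Ccr2 at 357 ± 28.3 against 1.06 ± 0.309 CPM. Of 28 G protein and RGS genes, 20 were higher in BMDC and 6 (21.4%) over 4-fold. Gna15 and Gng12 were at 45 ± 4.56 and 144 ± 6.84 CPM in BMDC and 4.07 ± 0.274 and 10.7 ± 1.31 CPM in B cells. Rgs13, a brake on G protein signalling, had 3997 counts in B cells and 0 in BMDC, at least 1031-fold higher in B cells. Gnas was not called, at 541 ± 23.4 and 542 ± 6.74 CPM.

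Both chains of the type I interferon receptor were detected in every library and differed in opposite directions. Ifnar1 was at 205, 196 and 173 CPM in B cells and 127, 125 and 131 CPM in BMDC (-0.59, SE 0.07). Ifnar2 was at 36.2, 35.3 and 36.1 CPM and 79, 72.2 and 76.4 CPM (1.08, SE 0.06). Il10ra, the ligand-binding chain of the interleukin-10 receptor, was at 204, 182 and 179.8 CPM in B cells and 149.5, 149 and 132 CPM in BMDC, with no overlap (-0.39, SE 0.07; edgeR adjusted p = 4.78e-04). In the receptor, JAK and STAT list of 29, 3 (10.3%) genes were over 4-fold higher in BMDC and 2 (6.9%) in B cells, shares below those of all genes. The former were the cytokine feedback genes Socs2 and Cish, at 113 ± 10.9 and 176 ± 6.84 CPM against 1.88 ± 0.234 and 14.7 ± 0.895 CPM, and Usp18. The latter were Jak3 and Stat4, at 61.9 ± 0.523 and 54.9 ± 1.66 CPM against 11.3 ± 0.938 and 5.67 ± 1.55 CPM. Ifngr1, Ifngr2, Ifnlr1 and Stat6 were not called.

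Of 32 cytokine and growth factor receptors, 16 were higher in BMDC and 15 in B cells, 11 (34.4%) and 8 (25%) over 4-fold. Csf2rb and Csf2ra, chains of the GM-CSF receptor, were at 3152 ± 88.1 and 222 ± 3.85 CPM in BMDC and 16.3 ± 2.02 and 7.15 ± 0.975 CPM in B cells. Tnfrsf13c, the receptor for BAFF, was at 140 ± 18.8 CPM in B cells and 0.214 ± 0.0915 CPM in BMDC. Il9r and Il5ra were also over 4-fold higher in B cells, at 66.4 ± 3.51 and 4.65 ± 0.191 against 0.221 ± 0.132 and 0.0369 ± 0.0186 CPM. Ltbr, the lymphotoxin β receptor, and its ligand gene Ltb were on opposite sides. Ltbr was at 55.1 ± 1.4 CPM in BMDC and 0.388 ± 0.118 CPM in B cells, and Ltb at 243 ± 20.1 CPM in B cells and 6.96 ± 0.838 CPM in BMDC.

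Among cytokine genes, Il10, a cytokine of regulatory B cells, was at 2.64, 2.31 and 3.0 CPM in B cells, 382 counts in all, and had no count in BMDC, so that B cells were at least 98.5-fold higher. Il12a, which encodes a subunit of interleukin-12 and interleukin-35, was at 7.87, 5.67 and 5.93 CPM in B cells and 0.406, 0.461 and 0.266 CPM in BMDC (-4.07, SE 0.25). Ebi3, the partner of Il12a in interleukin-35, was the reverse, at 4.1, 4.75 and 5.53 CPM in B cells and 28.2, 25.5 and 28 CPM in BMDC (2.51, SE 0.11; edgeR adjusted p = 5.28e-04 for over 4-fold). The 2 subunit genes were thus each over 4-fold higher in a different cell type. Tgfb3 was at 51.5 ± 3.97 CPM in B cells and 1.72 ± 0.73 CPM in BMDC. In BMDC the osteopontin gene Spp1 reached 7387 ± 164 CPM against 2.75 ± 0.332 CPM, and Igf1 and Csf1 were at 107 ± 5.68 and 78.6 ± 8.36 CPM against 0.279 ± 0.129 and 4.68 ± 0.556 CPM. Tnf overlapped between the groups, at 5.38, 7.62 and 6.21 CPM in B cells and 6.39, 29.2 and 13.9 CPM in BMDC (1.38, SE 0.43; edgeR adjusted p = 0.0113), and without BMDC replicate 2 the difference was 0.68 with an adjusted p of 0.0546. Of 26 cytokine genes tested, 8 (30.8%) were over 4-fold higher in BMDC and 4 (15.4%) in B cells, and the same numbers were found without that library.

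Chemokines were over 4-fold higher in BMDC for 12 (66.7%) of 18 genes. Ccl6 and Ccl9 were at 8478 ± 335 and 2168 ± 140.4 CPM against 1.11 ± 0.583 and 0.72 ± 0.39 CPM, and Ccl17, which attracts T cells, at 1811 ± 113 against 0.054 ± 0.039 CPM. Cxcl3 had 10499 counts in BMDC and none in B cells, at least 4524-fold higher. Cxcl9, a ligand of CXCR3, was the chemokine over 4-fold higher in B cells, at 2.95 ± 0.283 against 0.0581 ± 0.101 CPM. Cxcl10 turned on a library, at 1.77, 19.3 and 1.92 CPM in BMDC and 2.2, 1.44 and 2.27 CPM in B cells. Its difference was 2.01 (SE 0.80; edgeR adjusted p = 0.0375) and became -0.08 (adjusted p = 0.776) without BMDC replicate 2. Its call was also lost without any 1 of the B cell libraries, and over all libraries left out in turn the difference ranged from -0.08 to 2.50. The list's median was 6.40, or 5.08 with genes at 0 set to their bounds.

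Interferon-stimulated genes were on balance level. Of 40 tested, 17 were higher in BMDC and 19 in B cells, 3 (7.5%) and 3 (7.5%) over 4-fold, with a median of -0.27. Without BMDC replicate 2, 4 genes were over 4-fold in each direction. Ifitm3, which blocks virus entry, was at 269.8 ± 16 CPM in BMDC and 3.38 ± 0.528 CPM in B cells, and Ifi27l2a and Isg20 were higher in B cells, at 159 ± 18.3 and 12.5 ± 0.337 against 31.3 ± 4.48 and 2.46 ± 0.11 CPM. Isg20 was not over 4-fold in DESeq2 (adjusted p = 0.0708). Ifit1 was at 4.5, 41.8 and 3.49 CPM in BMDC and 1.89, 1.27 and 1.77 CPM in B cells, a difference of 3.36 (SE 0.89) that became 1.29 without replicate 2, and limma-voom did not call it (adjusted p = 0.0536). Isg15 was not called with all libraries (-0.28, edgeR adjusted p = 0.338) and was higher in B cells without replicate 2 (-0.77, adjusted p = 1.87e-04).

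MHC class II genes were abundant in both. Cd74, the invariant chain, was at 10021, 9778 and 10824 CPM in B cells and 7056, 5907 and 7017 CPM in BMDC (-0.62, SE 0.12), and H2-Ab1 at 4685, 4724 and 4729 CPM and 2800.4, 2393 and 2612 CPM (-0.86, SE 0.09). Ciita, the master regulator of these genes, was at 313, 321 and 316 CPM and 189, 138 and 175 CPM (-0.92, SE 0.10). Each was higher in B cells by less than 4-fold and without overlap. Other class II presentation genes were less even. H2-Ob, which with H2-Oa forms the H2-O inhibitor of peptide exchange, was at 1070, 1032 and 1010 CPM in B cells and 50.6, 36.8 and 36.5 CPM in BMDC (-4.65, SE 0.13). H2-Oa was at 238 ± 5.46 against 19.5 ± 3.05 CPM and H2-Eb2 at 275 ± 6.63 against 4.45 ± 0.392 CPM. H2-DMa, part of the exchange catalyst H2-M, was not called, at 406 ± 21.5 and 379 ± 45.8 CPM. Ctss, the protease that trims the invariant chain, was the list's member over 4-fold higher in BMDC, at 3979 ± 280.4 against 564 ± 38 CPM. Of the 17 genes, 5 (29.4%) were over 4-fold higher in B cells. For class I, 14 of 22 genes were higher in B cells and 3 (13.6%) over 4-fold, namely H2-Q4, H2-Q6 and H2-Q7, which are near copies of each other and share reads.

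Costimulatory ligands differed in both directions. Cd86 was not called, at 150.3, 127 and 105 CPM in B cells and 109, 108 and 111 CPM in BMDC (-0.22, SE 0.11; edgeR adjusted p = 0.0757), and the B cell libraries spanned the BMDC values. It was called as higher in B cells in 4 alternatives, among them without B cell replicate 3 (-0.34, adjusted p = 0.00196). Cd80, the other ligand of CD28, was at 3.69, 3.1 and 3.94 CPM in B cells and 59.7, 71 and 86.4 CPM in BMDC (4.34, SE 0.15). Cd40, through which T cells help both cell types, was at 70.7, 69.2 and 68 CPM in B cells and 9.52, 10.2 and 9.05 CPM in BMDC (-2.85, SE 0.07). Slamf6 was higher in B cells (54.8 ± 3.56 against 4.33 ± 0.101 CPM) and Tnfsf4, the OX40 ligand, in BMDC (14.4 ± 3.07 against 0.597 ± 0.0844 CPM). In this list 4 (26.7%) and 4 (26.7%) of 15 were over 4-fold higher in BMDC and in B cells.

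Inhibitory ligands and receptors leaned toward BMDC, 12 (54.5%) of 22 over 4-fold against 3 (13.6%) in B cells. Cd274, which encodes PD-L1, was at 249.9, 281 and 251 CPM in BMDC and 142, 147 and 172 CPM in B cells (0.76, SE 0.08). Pdcd1lg2, which encodes PD-L2, was over 4-fold higher in BMDC, at 113 ± 4.32 against 17.1 ± 0.894 CPM. Sirpa and Cd200r1, inhibitory receptors of myeloid cells, were at 715 ± 27.9 and 253 ± 5.01 CPM against 8.71 ± 1.77 and 0.135 ± 0.103 CPM. The genes over 4-fold higher in B cells were Btla, at 422 ± 25.2 against 27.2 ± 3.05 CPM, Cd72, and Cd22, an inhibitory lectin of the B cell receptor whose promoter is printed above, at 695 ± 21.7 against 26.1 ± 3.05 CPM.

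Of 32 lysosome genes, 29 were higher in BMDC, 19 (59.4%) of them over 4-fold, with a median of 2.59. The cathepsin genes Ctsd and Ctsb were at 6009 ± 149 and 4223 ± 136 CPM against 73.6 ± 3.54 and 138 ± 6.29 CPM, and Psap, the precursor of the saposins, at 13137 ± 514 against 718 ± 72 CPM. The exceptions were Ctse, Gla and Tfeb, higher in B cells at 170 ± 8.22, 297 ± 34.5 and 74.7 ± 4.61 CPM against 39.1 ± 2.55, 156 ± 5.94 and 21.5 ± 1.24 CPM. Tfeb is a regulator of lysosomal genes, and its relative Mitf was higher in BMDC, at 59 ± 4.07 against 1.33 ± 0.243 CPM. Ctse was not called over 4-fold (-2.12; edgeR adjusted p = 0.0507 for that test) but was in 8 of 16 alternatives.

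Lipid and scavenger genes were over 4-fold higher in BMDC for 17 (77.3%) of 22. Lpl, lipoprotein lipase, was at 4384 ± 115 against 0.302 ± 0.0645 CPM, and Msr1 and Axl at 673 ± 13.2 and 949 ± 88.2 CPM against 0.455 ± 0.14 and 2.32 ± 0.709 CPM. Apoe went the other way, at 278 ± 19.8 CPM in B cells and 26.3 ± 10.7 CPM in BMDC. Of 16 oxidase and nitric oxide genes 15 were higher in BMDC, 8 (50%) over 4-fold. Arg1, Acod1 and Nqo1 were at 33 ± 24.8, 110 ± 12.7 and 58.4 ± 7.91 CPM against 0.0638 ± 0.0591, 0.609 ± 0.698 and 0.0741 ± 0.0537 CPM, where the call of Arg1 over 4-fold was lost in limma-voom (adjusted p = 0.124), while the oxidase genes Ncf1 and Ncf4 differed by less than 4-fold. The small GTPase gene Rac2 was higher in B cells, at 561 ± 44.8 against 306 ± 12.2 CPM.

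Metabolic and cell cycle genes also leaned toward BMDC. Among 22 glycolysis genes, 11 (50%) were over 4-fold higher in BMDC. Hk3 and the lactate exporter Slc16a3 were at 171 ± 6.48 and 135 ± 9.44 CPM against 1.27 ± 0.135 and 1.42 ± 0.756 CPM. The glucose transporter Slc2a3 was over 4-fold higher in B cells, at 40.8 ± 2.45 against 7.72 ± 0.426 CPM. Of 24 cell cycle genes 22 were higher in BMDC and 14 (58.3%) over 4-fold, a number that was 9 without B cell replicate 1 or without replicate 2 and 8 in DESeq2. Cdk1 was at 67.9 ± 1.94 against 6.86 ± 1.27 CPM and Ccnd1 at 78 ± 13.1 against 6.49 ± 1.07 CPM. Among 15 BCL2 family genes the prosurvival genes were divided. Bcl2 was higher in B cells (112 ± 2.55 against 49 ± 7.03 CPM, under 4-fold) and Bcl2l1 over 4-fold higher in BMDC (70.5 ± 14.5 against 13 ± 0.557 CPM), and Mcl1 was not called, at 651 ± 26.6 and 648 ± 66.9 CPM. Integrins were divided as well. Itgam, which encodes CD11b, was at 1961 ± 54.8 CPM in BMDC and 6.03 ± 0.781 CPM in B cells, and Itga4 was at 358 ± 26.9 CPM in B cells and 46.6 ± 1.55 CPM in BMDC. 10 (37%) of 27 genes of that list were over 4-fold higher in BMDC and 5 (18.5%) in B cells.

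**Figure D5:**
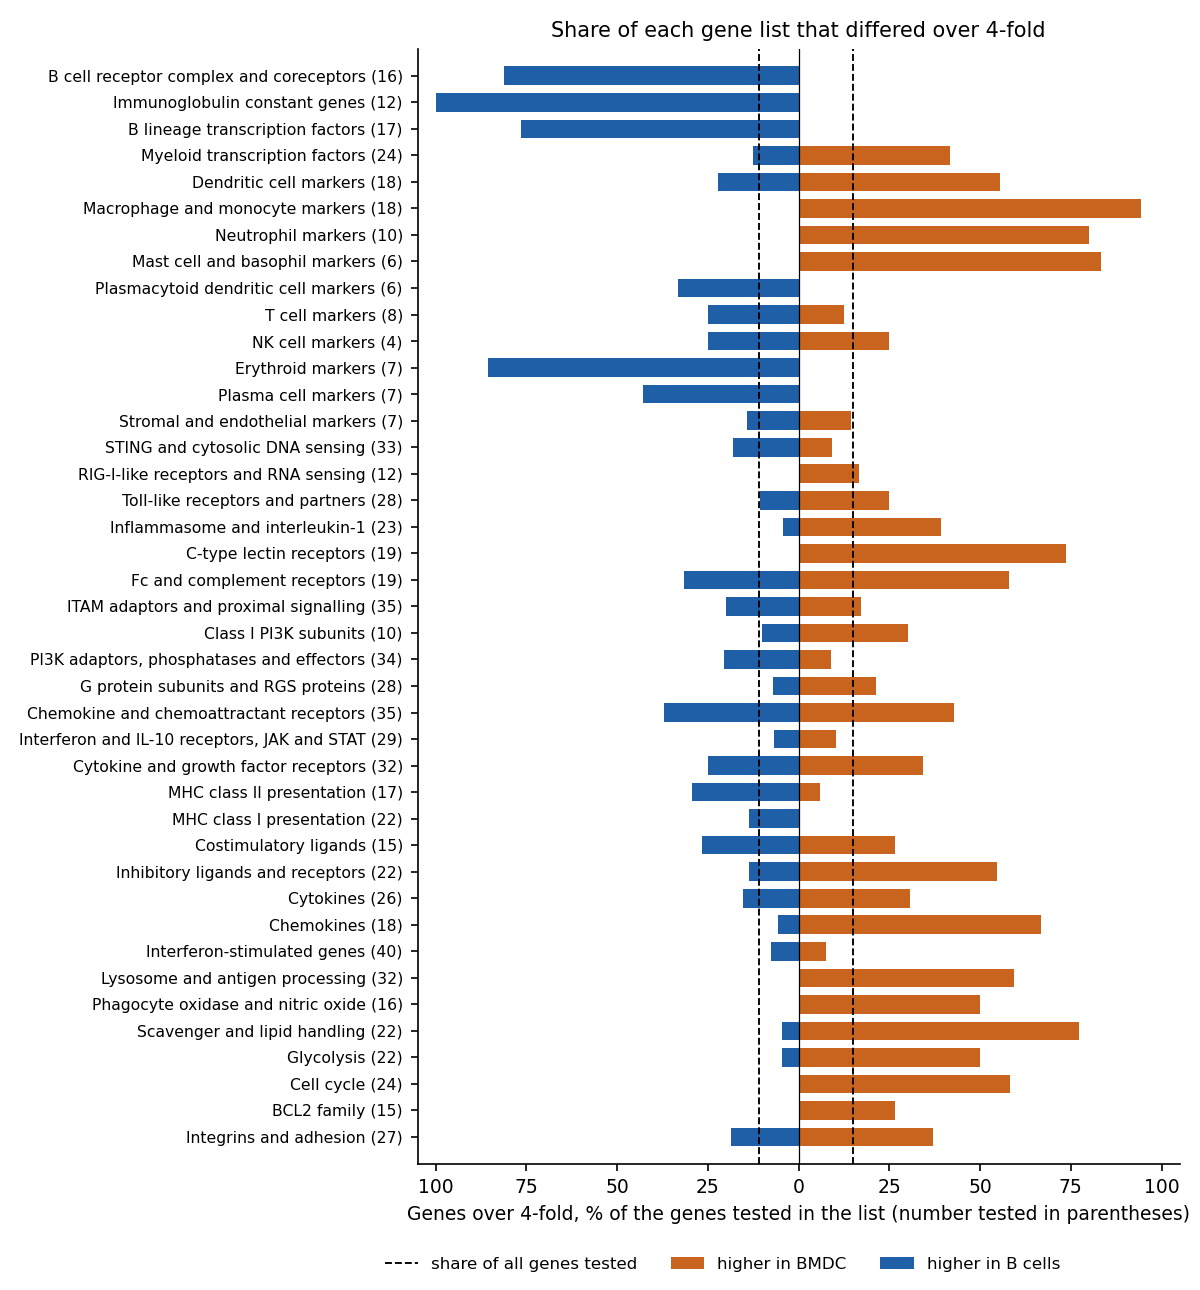
Share of each gene list over 4-fold higher in BMDC (orange, to the right) or in B cells (blue, to the left), in percent of the genes tested in the list, with dashed lines at the shares of all genes tested (15.1% and 10.8%). C-type lectins, scavenger and lysosome genes reach far past the line for BMDC, and interferon-stimulated genes stay within both lines.

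The same measure was taken in libraries that the comparison had not used, 2 BMDC and 3 B cell libraries incubated with MSA2 plus IPI-549. Over 4-fold there were 4038 of 16054 genes tested (25.2%), 2401 higher in BMDC (15.0%) and 1637 higher in B cells (10.2%). Of 3952 genes over 4-fold in untreated cells and tested in both, 3480 were over 4-fold in the same direction with the combination and 0 in the other. Among 49 key genes, 24 were over 4-fold in untreated cells and 22 of these with the combination. The 2 that were not were Tlr9 and Cd40. Tlr9 was at 76.5, 96.1 and 48.6 CPM in B cells and 25.7 and 18.7 CPM in BMDC (-1.73), and Cd40 at 68.1, 70.3 and 88.7 CPM and 34.2 and 35.4 CPM (-1.12). Lineage genes such as Cd79a (1862 and 0.178 CPM) and Csf1r (2.11 and 756 CPM) kept their order. Sting1 was at 38.3, 34.6 and 39.9 CPM in B cells and 100 and 99.3 CPM in BMDC (1.41), and Pik3cg at 71, 72.2 and 59.5 CPM and 179 and 164 CPM (1.34), again higher in BMDC by less than 4-fold. Spi1 was over 4-fold higher in BMDC there (2.25, edgeR adjusted p = 0.0191), as were Il1b (3.04) and Tnf (3.68). These libraries share the table and tissue of the untreated libraries of their cell type, so here too cell type cannot be told apart from those. They were also treated, so whether a difference between both sets of values comes from treatment was not tested here. Libraries incubated with MSA2 alone were left out of this measure. In earlier results of these data, markers of other cells were high in the B cell libraries with MSA2 alone.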

How the data were processed

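RNA was extracted with a Qiagen RNeasy Mini Plus kit and made into Illumina libraries, per the labels' protocols. Reads were trimmed with cutadapt 4.8, aligned with STAR 2.7.8a to GRCm38/mm10 and quantified with RSEM 1.3.3, and quality was followed with FastQC 0.11.8 and MultiQC 1.20, per the submitters' processing notes. The annotation release and the strand setting are not given in the sources used here, so reads of overlapping or antisense genes cannot be told apart. The deposited values are expected counts per gene, already whole numbers, in 1 table per cell type. The tables were joined by gene identifier over 55487 shared genes, and 4 reporter rows were kept out of the fits.

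Groups were taken from sample titles, since the treatment label reads the same for every library. Counts were filtered with filterByExpr and TMM-scaled, and 1 fit of the 6 libraries was made with edgeR 4.0.16 in R 4.3.3 (glmQLFit, then glmQLFTest for any difference and glmTreat for a difference over 4-fold). Calls used a Benjamini-Hochberg adjusted p under 0.05 over all genes tested. The libraries of the combination were fitted alone in the same way. A group with 0 to 3 counts of a gene received a bound against 3 counts over the group, or a ratio with its 95% counting interval, in place of a fitted fold. Intervals cover counting error only. Per-length levels used exon-union lengths of GENCODE M21, which 55227 genes had. Promoters and their letters came from RefSeq (GRCm38.p6). No pair of replicates agreed within sampling noise. The steps were tested on simulated counts.

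Genes named are 49 key genes, the 10 largest differences over 4-fold in each direction with at least 50 CPM, and from each of 42 lists up to 6 genes over 4-fold in each direction, up to 3 called against the list's direction and up to 3 not called. Other genes were named after their values were seen, and some genes that the rule names are not reported here. The members and lists were chosen with earlier results of these data known. Alternatives were other scalings, other filters, DESeq2 1.42.0, limma-voom 3.58.1, a fit of all 17 libraries, a replicate block, the longest transcript as length and each library left out.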

Additional observations from a re-analysis of the deposited data

Results flagged for a closer look

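Il10ra differed in opposite directions in the untreated and the combination libraries. It was higher in every untreated B cell library, at 204, 182 and 179.8 CPM against 149.5, 149 and 132 CPM in BMDC, a log2 difference of -0.39. With MSA2 plus IPI-549 it was higher in both BMDC libraries, at 308 and 279 CPM against 251, 254 and 261 CPM, a log2 difference of 0.2. The difference between these 2 values was not tested.

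A row for the reporter eGFP, which no comparison used, held at least 2042 counts in each of the 6 untreated libraries. In CPM without TMM scaling it was at 67.2, 76.3 and 79.2 in B cells and at 57.4 to 59.3 in BMDC. Rows for cre, mCherry and tdTomato held no count in these libraries. No label names a reporter, and the source of these counts was not tested.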

How the results depend on the processing

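The 13340 genes with any difference and the 4019 over 4-fold stayed within 1.5 times under every alternative run. RLE factors gave 13328 and 4022, upper quartile factors 13364 and 4024, library totals 13336 and 4030, no filter 15053 and 4229, at least 1 CPM in 3 libraries 11435 and 3227, DESeq2 13010 and 3505, limma-voom 13329 and 3715, and all 17 libraries in 1 fit 14204 and 4322. Without immunoglobulin and mitochondrial genes they were 13138 and 3802. Leaving out each library gave 13110 to 13660 and 3974 to 4252, and 3432 to 4001 over 4-fold for the combination. With a replicate block by title suffix they were 13331 and 4049. Libraries with the same suffix correlated at 0.031, 0.011 and 0.089 in their deviations, and the other pairs at -0.096 to 0.075. With 3 libraries per cell type, these values do not settle whether the suffix pairs the samples. Over 771 genes and 12293 comparisons with an alternative, 126 calls of any difference were lost (35 genes) and 42 gained (19 genes), and 97 calls over 4-fold were lost (27 genes) and 56 gained (22 genes). Cxcl10 changed sign without BMDC replicate 2, and its log2 difference with each library left out ranged from -0.0813 to 2.50. Of 1344 list counts, 32 moved by over 1.5 times, in 12 of 84 counts, among them neutrophil markers over 4-fold higher in BMDC (8, and 3 in DESeq2) and T cell markers higher in B cells (2, and 8 without B cell replicate 3). With the longest transcript as the length, some per-kilobase levels shifted by their SD over 3 libraries or more. They were Pik3ca (25.8 in B cells and 12.6 in BMDC), Pik3cg (27.5 in B cells), Pik3r5 (10.9 in B cells) and Pik3r6 (35.9 in BMDC). All genes were rescaled with these lengths, so a level also depends on the lengths of other genes. Genes with few counts in 1 group have bounds or wide intervals, which depth limits.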

Other observations

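Several immediate early genes, a class that cells switch on within minutes of a stimulus, were at higher levels in the B cell libraries. As a group they were chosen after their values were seen, so no test of the group is given. Nr4a1 and Egr2 also stood in the list of myeloid factors, where Nr4a1 was called over 4-fold higher in B cells. Nr4a1 was at 1999.6, 3215 and 2551 CPM in B cells and 0.842, 1.38 and 4.94 CPM in BMDC. Fosb was at 498, 684 and 823 CPM and 0.987, 3.27 and 4.38 CPM, Egr3 at 317, 409 and 396 CPM and 1.63, 2.77 and 4.38 CPM, and Egr1 at 58.1, 192 and 126 CPM and 1.63, 1.94 and 2.07 CPM. Junb, a partner of FOS proteins, was at 1343 ± 153 and 142 ± 17.2 CPM, and Dusp2, a phosphatase of MAP kinases, at 409 ± 48.5 and 0.624 ± 0.0631 CPM. The heat shock gene Hspa1a was at 159 ± 34.1 and 1.53 ± 0.442 CPM. Egr2 and Atf3 were not higher in B cells, at 30.4 ± 4.51 and 139 ± 21.5 CPM against 75.4 ± 13.7 and 150.2 ± 49 CPM in BMDC. Handling of the cells before lysis is not described in the labels, and its part in these values was not tested.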
